A study of Sus scrofa with 4 samples.

Results

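The cells described here are T cells of regenerating pig bone that carried transcripts of BLK, a Src-family kinase, or of SOX13, a transcription factor, and none of CD4 or CD8A. Members were chosen by measured values, namely UMI (unique molecular identifier) counts per cell. A kept cell barcode was a member when CD3D, CD3E and CD3G together had at least 2 UMIs, BLK and SOX13 together had at least 1, and CD4, CD8A, the B cell genes MS4A1, PAX5 and CD79B, and the myeloid gene CSF1R had 0. This rule found 4454 cells, which were 8.74% of 50935 kept cells. Bone given the 1797 peptide held 1120 and 1158 members in its 2 libraries, against 1263 and 913 in the 2 of bone given a control peptide. They are called BLK/SOX13 cells below, and 1797 members or control members where split by peptide.

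Gamma-delta T cells carry a T cell receptor made of a gamma and a delta chain in place of the alpha and beta chains of CD4 and CD8 T cells. In pigs they are unusually common in blood and tissues, most of them in blood lack CD2, and many CD2-negative ones carry WC1, a scavenger receptor family encoded by genes such as CD163L1. In mice SOX13 and BLK mark gamma-delta T cells that are poised to make interleukin-17, and such cells have been found in healing bone.

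The tissue was regenerated bone of Bama mini-pigs aged 8 months, with 2 libraries from the 1797 peptide group and 2 from the control peptide group. Intact regenerated tissue was digested with collagenase, red cells were lysed, and transcripts were captured by droplet single-cell RNA sequencing that reads the 3′ end of each transcript. The labels do not say whether the libraries came from separate animals, so p-values measure only the spread between these libraries, which may be technical. Further control samples that the series design mentions are not analysed here.

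The 4 libraries held 12133 to 14496 barcodes, of which 11855 to 13401 were kept, with medians of 3398 to 5512 UMIs per kept cell. Members had median depths of 6606.5 and 7305.5 UMIs with 1797, against 7389 and 7362 with control. Any pair of libraries shared 42 to 63 barcode sequences among all their barcodes and at most 2 among members. Marker genes of other cell types were present at uneven levels in members: summed levels per library ran from 34.9 to 109 CPM (UMIs scaled to a common total) for 7 macrophage markers, from 195 to 1652 CPM for 6 neutrophil markers, from 304 to 3146 CPM for 5 stromal markers and from 311 to 4013 CPM for 4 erythroid markers. In CSF1R cells, which are the 4698 kept cells with CSF1R and no CD3 or B cell UMIs, the macrophage sum was 1074 to 1550.0 CPM. They serve below as a gauge of free RNA, but only for genes that such cells do not make themselves. Which genes these are was not tested.

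UMI counts of BLK plus SOX13 ran without a gap from 0 to 10 or more per CD3 cell. Among CD3 cells that met every other condition, 589 and 503 cells with 1797 had 0 BLK or SOX13 UMIs, against 1114 and 489 with control. Exactly 1 UMI, just inside the threshold, was seen in 83 and 70 cells with 1797, against 188 and 68 with control. Exactly 9 were seen in 60 and 75 cells with 1797, against 65 and 39 with control. At least 10, a class that pools all higher counts, were seen in 480 and 602 cells with 1797, against 331 and 557 with control. The libraries of the groups overlapped in the count with at least 10, and control replicate 1 held the most cells at 1 UMI. The CD3 condition also had members at its edge: exactly 2 CD3 UMIs were seen in 151 and 137 members with 1797, against 152 and 99 with control. BLK was found in 95.8% of members, SOX13 in 67.1% and CD3E in 98.6%. Both BLK and SOX13 were found in 2802 members, BLK alone in 1466 and SOX13 alone in the rest.

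**Figure D1:**
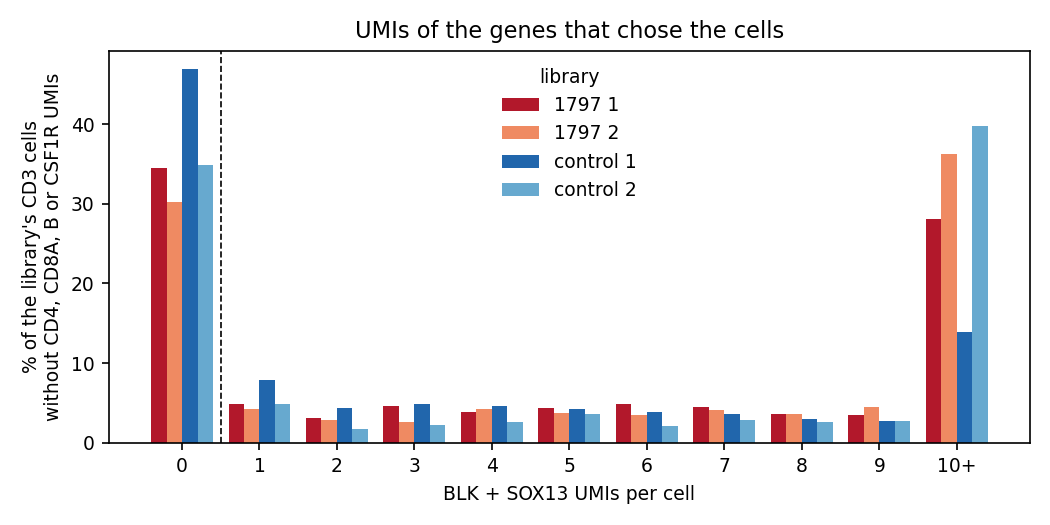
BLK plus SOX13 UMIs per cell (horizontal axis) against the percentage of each library's CD3 cells without CD4, CD8A, B cell or CSF1R UMIs (vertical axis). Bars are single libraries, the last bars pool all counts of 10 or more, and the dashed line is the threshold of the rule. Cells are present at every count, with 83 and 70 cells at exactly 1 UMI with 1797, against 188 and 68 with control.

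Cells on both sides of the threshold were described by genes the rule did not use, with no test. The 409 members with exactly 1 BLK or SOX13 UMI had a mean LCK level of 471 CPM, against 40.0 CPM in members with at least 2 UMIs and 718 CPM in the cells just outside, which had 0. C9H1orf186, the gene described next, had 492 CPM in members with 1 UMI, against 1731 CPM in those with at least 2 and 49.0 CPM in those with 0. The mean levels of members at 1 UMI thus lay between those on either side. C9H1orf186 was detected in 49.9% of them, against 98.0% of members with at least 2 UMIs, and LCK in 51.1%, against 10.2%. The conditions on CD4 and CD8A also kept cells out: 220 cells with BLK or SOX13 were left out for CD4 UMIs, 408 for CD8A UMIs, 35 for both and 1038 for B cell or CSF1R UMIs. The 408 left out for CD8A had 642 CPM of C9H1orf186 and 439 CPM of LCK.

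Members were compared with 3 other groups of CD3 cells in the same libraries: 1533 CD4 cells, 1971 CD8A cells, and 2695 cells that met the rule in all but BLK and SOX13. CD4 cells had CD4 and no CD8A UMIs, and CD8A cells the reverse. Both also had 0 UMIs of BLK, SOX13 and the B cell and CSF1R genes of the rule. They are thus not all CD4 or CD8A T cells: those with BLK or SOX13 are in none of the groups. UMI counts were summed per library and group, giving 4 sums a group, and tested with edgeR with library as a block. A gene is called where its adjusted p is under 0.05. Against CD4 cells, 2058 of 11579 genes (17.8%) were called higher and 1974 (17%) lower. Against CD8A cells, 2129 of 11815 genes (18%) were called higher and 2054 (17.4%) lower. Against cells without BLK or SOX13, 1667 of 12222 genes (13.6%) were called higher and 1713 (14%) lower. Of B cell markers, 2 of 4 tested were called higher against CD4 cells and 3 of 4 against CD8A cells. Of natural killer cell markers, 1 of 3 was called lower against CD4 cells, 4 of 5 against CD8A cells and 3 of 5 against cells without BLK or SOX13. Of the remaining marker lists, 1 macrophage gene was called higher against CD4 cells, and 1 stromal and 1 erythroid gene higher and 1 endothelial gene lower against cells without BLK or SOX13. The part of these markers in other differences was not tested. These shares of all genes are the background for every count of listed genes below. Since 2 groups were defined by detecting a gene and members by missing it, depth was not matched by the rule: median UMIs per library were 6606.5 to 7389 in members, 7825.5 to 8729 in CD4 cells, 7034 to 8144.5 in CD8A cells and 6371 to 7467 in cells without BLK or SOX13.

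C9H1orf186, the neighbouring LOC100627879 and CD163L1 were far higher in members than in the other T cells. C9H1orf186, an open reading frame on chromosome 9 (Sscrofa11.1, 66736563 to 66759659), had 1529.7 and 1867 CPM in 1797 members and 1529.6 and 1529.1 CPM in control members. Its levels were 6.91 to 14.5 CPM in CD4 cells, 7.09 to 18.4 CPM in CD8A cells and 13.1 to 65.8 CPM in cells without BLK or SOX13. No library of these groups, all without BLK or SOX13 UMIs, came near the members. C9H1orf186 was higher by 7.25 ± 0.17 on the log2 scale than in CD4 cells (SE, edgeR adjusted p = 2.9e-07, n = 4 libraries each). Cells with BLK or SOX13 that were left out for CD8A UMIs had more of it than these groups, as given above. After each cell was thinned to 1500 UMIs, which kept 4430 members and 3938 CSF1R cells, C9H1orf186 was found in 82.9% of members (95% exact binomial interval 81.7 to 84.0%), against 1.57% of CD4 cells, 1.53% of CD8A cells and 1.80% of CSF1R cells. Intervals on shares of cells cover counting error only.

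CD163L1 is annotated in RefSeq with the synonym WC1 and lies on chromosome 5 (63488674 to 63514536). It had 62.9 and 42.5 CPM in 1797 members and 38.5 and 60.2 CPM in control members, and at most 3.60 CPM in any library of the other 3 T cell groups. All 4 member values lay above all others, by 7.30 ± 0.39 on the log2 scale against CD4 cells, 6.89 ± 0.29 against CD8A cells and 4.43 ± 0.27 against cells without BLK or SOX13 (edgeR adjusted p = 1.1e-05, 6.4e-06 and 2.8e-05). A CD163L1 UMI was seen in 17.3% of members, against 0.261% of CD4 cells and 0.511% of the deeper CSF1R cells, and in 6.34%, 0% and 0.0508% of these groups after thinning. The 0 of 1531 thinned CD4 cells allows up to 0.241% by the exact interval. LOC100627879 (chromosome 9, 66696561 to 66720666) had 307 to 340 CPM in members and a mean of 8.77 CPM or less in the other groups.

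BLK/SOX13 cells were also above all 3 other groups in receptors and signal adaptors. IL9R, the interleukin-9 receptor, had 28.1 to 37.9 CPM in members and 1.27 CPM or less in every library of the others. PIK3AP1, an adaptor that links receptors to phosphoinositide 3-kinase, averaged 2266 CPM in members, against 68.9 CPM in CD4 cells, 274 CPM in CD8A cells and 234 CPM in cells without BLK or SOX13. SLC4A4, a sodium bicarbonate cotransporter, averaged 146 ± 7.28 CPM in members, against 7.32 ± 0.75 CPM in CD4 cells (SD, n = 4 each). KCTD12, RGS9, SYTL3 and CRHR1 were called higher in all 3 comparisons. RGS9, a regulator of G protein signalling, was uneven: members had 104 and 46.8 CPM with 1797 and 94.6 and 36.0 CPM with control, above at most 6.49 CPM elsewhere. ASIC2, an acid-sensing ion channel, was called in all 3, but 1 library carried it: 13.0 and 4.88 CPM with 1797, against 77.5 and 3.43 CPM with control.

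Whether the receptor itself is of the gamma-delta kind could not be read directly. No gene that RefSeq annotates as a variable segment or constant region was among the measured genes under its RefSeq symbol. The nearest measured feature was the locus on chromosome 7 that holds LOC102158035, which RefSeq gives the synonym TCR-a. In mammals the delta chain genes lie inside the alpha chain locus. LOC102158035 spans 76471215 to 77056010, and RefSeq places 47 variable segments on the chromosome, with starts between 76800497 and 77486290. LOC102158035 had 613 and 633 CPM in 1797 members and 578 and 625 CPM in control members, against means of 509.9 CPM in CD4 cells, 573 CPM in CD8A cells, 514 CPM in cells without BLK or SOX13 and 15.9 CPM in CSF1R cells. It was higher by 0.31 ± 0.10 on the log2 scale than in CD4 cells (edgeR adjusted p = 0.043), a call lost when any one of 3 libraries was left out (adjusted p 0.088 to 0.19). It was also called higher against cells without BLK or SOX13 (adjusted p = 0.014, and 0.057 without 1797 replicate 2), and was not called against CD8A cells (adjusted p = 0.23).

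LOC102160313, an unnamed gene inside that span (76554354 to 76565679), did differ. It was picked after its values were seen. It had 152 and 177 CPM in 1797 members and 197 and 251 CPM in control members, against 2.30 to 12.3 CPM in CD4 cells, 18.0 to 32.3 CPM in CD8A cells and 27.0 to 66.7 CPM in cells without BLK or SOX13. Members lay above every library of the other groups, by 4.94 ± 0.28 on the log2 scale against CD4 cells, 2.84 ± 0.17 against CD8A cells and 2.12 ± 0.17 against cells without BLK or SOX13 (edgeR adjusted p = 1.4e-05, 2.1e-05 and 8.1e-05). The cells with BLK or SOX13 that were left out for CD8A UMIs had 130 CPM of it. The gamma-delta label was not checked on a gamma or delta chain. Of the measured genes of a receptor and coreceptor list, 2 of 9 were called higher and 5 lower against CD4 cells (median log2 difference -0.56), 2 of 10 higher and 7 lower against CD8A cells (median -1.44), and 1 of 10 higher and 7 lower against cells without BLK or SOX13 (median -1.39). CD163L1 was the one called higher in all 3 comparisons. CD2, CD5, CD6, CD27 and CD28 were called lower in all 3, and CD7 was higher against CD4 cells and lower against the other groups.

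**Figure D2:**
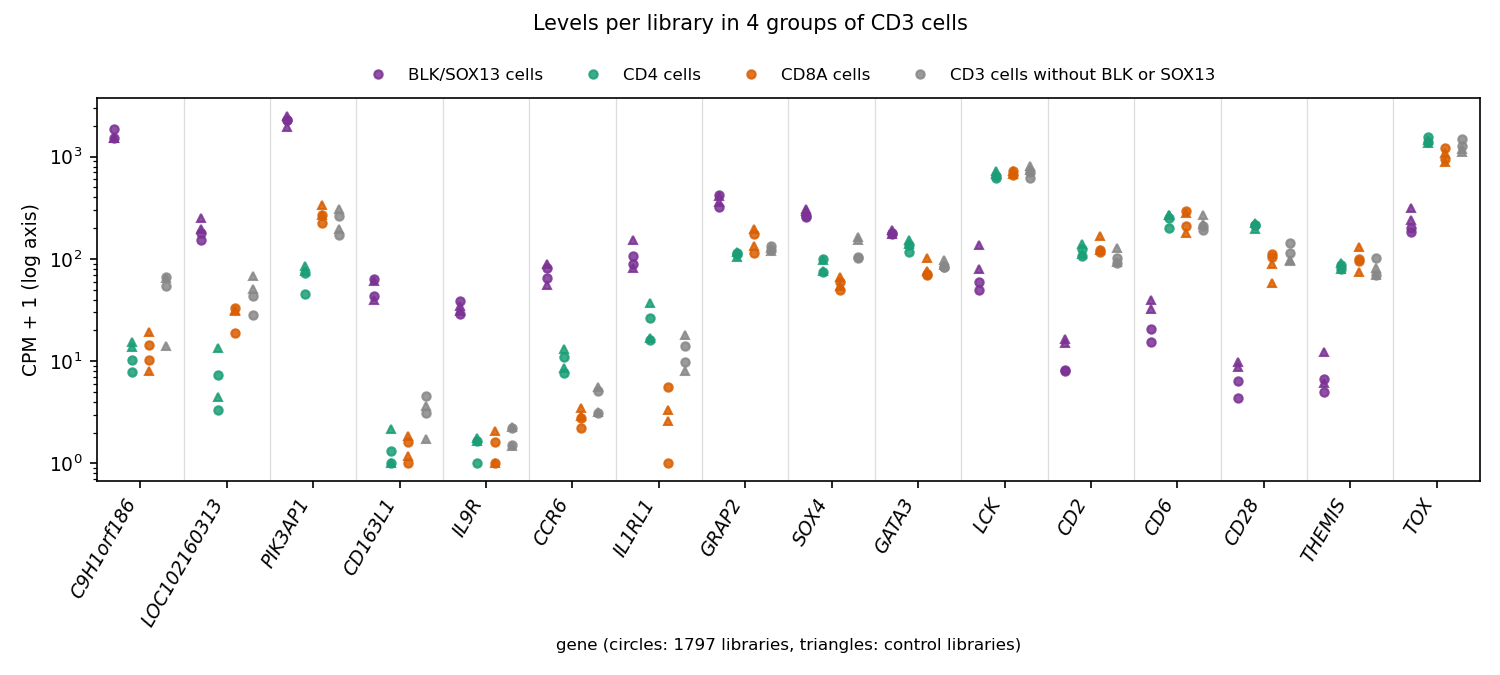
CPM + 1 on a log axis for 16 genes (horizontal axis) in BLK/SOX13 cells, CD4 cells, CD8A cells and CD3 cells without BLK or SOX13. Each point is 1 library, circles for 1797 and triangles for control: C9H1orf186 and CD163L1 sit above all other groups in all 4 libraries of members, and LCK, CD2, CD6, CD28 and THEMIS sit below all of them.

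Genes of proximal T cell receptor signalling and co-stimulation were mostly lower than in the other T cells. Of 22 tested genes of a receptor signalling list, 5 were called higher and 16 lower against CD4 cells, 3 higher and 14 lower against CD8A cells, and 4 higher and 15 lower against cells without BLK or SOX13. The list's median log2 difference was -0.70, -0.81 and -0.50 in these comparisons, beside medians of 0.0053, 0.0080 and -0.011 over all genes tested. LCK, the kinase that starts receptor signalling in most T cells, had 48.9 and 59.0 CPM in 1797 members and 134 and 77.9 CPM in control members. It had 611 to 724 CPM in CD4 cells, 665 to 724 CPM in CD8A cells and 620.0 to 806 CPM in cells without BLK or SOX13. No library of members reached any library of the others, and the log2 difference from CD4 cells was -3.11 ± 0.19 (edgeR adjusted p = 1.8e-05). After thinning, LCK was found in 5.80% of members, against 57.0% of CD4 cells, 57.8% of CD8A cells and 2.08% of CSF1R cells.

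CD28, the main co-stimulatory receptor, had 3.37 and 5.43 CPM in 1797 members and 7.71 and 8.71 CPM in control members, against 197 to 224 CPM in CD4 cells and 57.2 to 111 CPM in CD8A cells. The log2 difference was -5.05 ± 0.20 against CD4 cells and -3.76 ± 0.32 against CD8A cells (edgeR adjusted p = 3.9e-06 and 1.0e-04). CD2, an adhesion and co-stimulatory receptor, had 6.99 to 15.3 CPM in members, against 91.1 to 166 CPM in the other groups. CD6, which binds ALCAM on other cells, had 14.3 to 38.5 CPM in members, against 178 to 291 CPM in the others. CD5, a brake on receptor signalling, was lower by a smaller step, at 109 to 132 CPM in members and a mean of 425 CPM in CD4 cells, 203 CPM in CD8A cells and 282 CPM in cells without BLK or SOX13. THEMIS, needed for thymic selection of alpha-beta cells, SH2D1A, the adaptor SAP, and CBLB, a ubiquitin ligase that restrains signalling, were called lower in all 3 comparisons.

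Some signalling genes did not follow. GRAP2, the adaptor GADS that couples LAT to SLP-76, had 421 and 322 CPM in 1797 members and 357 and 410.2 CPM in control members. Its means were 111 CPM in CD4 cells, 153 CPM in CD8A cells and 125 CPM in cells without BLK or SOX13, and members lay above every library of these. The log2 differences were 1.79 ± 0.08, 1.37 ± 0.09 and 1.62 ± 0.10 (edgeR adjusted p = 5.2e-06, 3.6e-05 and 2.8e-05). CD247, the zeta chain of the receptor complex, averaged 281 CPM in members and 256 CPM in CD4 cells, a log2 difference of 0.17 ± 0.08 (edgeR adjusted p = 0.15).

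Transcription factors moved in both directions. Of 30 listed factors, 8 were called higher and 13 lower against CD4 cells, 8 and 16 against CD8A cells, and 10 and 15 against cells without BLK or SOX13. GATA3, a factor of T cell commitment and type 2 immunity, had 176 and 177 CPM in 1797 members and 191 and 174 CPM in control members. Its means were 135 CPM in CD4 cells, 79.3 CPM in CD8A cells and 86.6 CPM in cells without BLK or SOX13, with log2 differences of 0.45 ± 0.08, 1.23 ± 0.10 and 1.09 ± 0.06 (edgeR adjusted p = 0.0027, 7.6e-05 and 2.7e-05). No library of these groups overlapped the members. SOX4, a relative of SOX13 used in early lymphocytes, averaged 278 CPM in members and 56.6 to 129 CPM in the others, and ID3, which restrains E proteins downstream of the receptor, 62.7 CPM and 16.3 to 35.2 CPM. ETV5, MYC and BACH2 were likewise called higher in all 3. MAF, which mouse interleukin-17 gamma-delta cells need, averaged 397 CPM in members, 99.5 CPM in CD8A cells and 382 CPM in CD4 cells, and was called higher against CD8A cells and against cells without BLK or SOX13 only.

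TOX, a factor of thymic development and of exhaustion, had 182 to 312 CPM in members, against 888 to 1556 CPM over the libraries of the other groups. TBX21, which drives interferon-gamma programmes, averaged 10.3 CPM in members, 35.9 CPM in CD4 cells and 99.3 CPM in CD8A cells. Its log2 difference was -1.88 ± 0.23 and -3.31 ± 0.18 in these (edgeR adjusted p = 4.9e-04 and 1.5e-05). PRDM1, the factor Blimp-1 of terminal effector cells, and FOXP3, the factor of regulatory T cells, were also called lower in all 3 comparisons.

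The interleukin-17 list gave a mixed result. Against CD4 cells 1 of 19 tested genes was called higher and 10 lower, against CD8A cells 6 of 18 higher and 5 lower, and against cells without BLK or SOX13 5 of 19 higher and 5 lower. CCR6, the receptor for CCL20 that guides interleukin-17 cells, had 80.4 and 63.5 CPM in 1797 members and 53.9 and 87.3 CPM in control members. It had 6.62 to 12.2 CPM in CD4 cells, 1.23 to 2.50 CPM in CD8A cells and 2.09 to 4.56 CPM in cells without BLK or SOX13. Members lay above all of these, by 3.00 ± 0.13, 5.23 ± 0.18 and 4.38 ± 0.24 on the log2 scale (edgeR adjusted p = 4.9e-06, 3.2e-06 and 1.9e-05). IL17A was at 0 in both 1797 libraries and at 3.35 and 0.132 CPM in control members, IL17F at 0.264 to 3.55 CPM and IL23R at 1.11 to 2.64 CPM, levels too low to compare. IL1RL1, the interleukin-33 receptor, averaged 107 CPM in members, 23.2 CPM in CD4 cells, 2.12 CPM in CD8A cells and 11.6 CPM in cells without BLK or SOX13, and was called in all 3. IL18R1 was called higher against CD8A cells and cells without BLK or SOX13, and its log2 difference from CD4 cells was 0.33 ± 0.13 (edgeR adjusted p = 0.081).

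Among genes of circulation and adhesion, more were called lower than higher. S1PR1, the receptor that lets T cells leave tissues, had 133 to 147 CPM in members and means of 545 CPM in CD4 cells, 283 CPM in CD8A cells and 356 CPM in cells without BLK or SOX13, and was called in all 3. The integrin chains ITGA4 and ITGB1 and the chemokine receptor CXCR3 were also called lower in all 3. LGALS1, ANXA1 and VIM, genes high in activated and tissue cells, were called higher in all 3, with log2 differences of 0.68 to 1.64. Of the whole residence and trafficking list, 5 of 26 tested genes were called higher and 10, 13 and 11 lower in the 3 comparisons. The exception was the naive and circulating list against CD8A cells, with equal counts. Among 12 or 13 tested genes of naive and circulating cells, 1, 3 and 2 were called higher and 6, 3 and 5 lower.

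Secreted factors that act on bone were also divided. Of a list of cytokines and growth factors, 6 of 22 tested genes were called higher and 8 lower against CD4 cells, 7 of 23 higher and 9 lower against CD8A cells, and 4 of 23 higher and 10 lower against cells without BLK or SOX13. AREG, an epidermal growth factor receptor ligand tied to tissue repair, averaged 23.7 CPM in members, 2.73 CPM in CD4 cells, 1.21 CPM in CD8A cells and 3.12 CPM in cells without BLK or SOX13. It was called in all 3, and its adjusted p against CD4 cells was 0.010 with all libraries and 0.059 without control replicate 1. PDGFA, a growth factor for mesenchymal cells, had 62.6 and 38.5 CPM in 1797 members and 38.4 and 32.9 CPM in control members, and 28.6 CPM or less in every other library of T cells. VEGFA, which drives vessel growth, averaged 37.5 CPM in members and 22.2 to 23.5 CPM in the other groups, and was called in all 3.

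PTGS2, the prostaglandin-forming enzyme COX-2, and BMP6, a bone morphogenetic protein picked after its values were seen, belong to no list. PTGS2 had 158 and 137 CPM in 1797 members and 82.5 and 54.4 CPM in control members, against 3.53 to 28.3 CPM over all libraries of the other 3 groups. Members lay above all of them, by 4.54 ± 0.29 on the log2 scale against CD4 cells (edgeR adjusted p = 2.2e-05). CSF1R cells averaged 148 CPM, a level that cannot gauge free RNA if these cells make PTGS2 themselves. BMP6 had 109 and 92.6 CPM in 1797 members and 54.0 and 43.4 CPM in control members, against 1.89 to 37.7 CPM over the other T cell libraries and a mean of 13.8 CPM in CSF1R cells. Its log2 differences were 2.39 ± 0.53 against CD4 cells, 3.45 ± 0.36 against CD8A cells and 2.46 ± 0.39 against cells without BLK or SOX13 (edgeR adjusted p = 0.0095, 2.7e-04 and 0.0022), and the first became 0.053 in adjusted p without control replicate 1.

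TNFSF11, the osteoclast factor RANKL, had 19.7 and 22.3 CPM in 1797 members and 46.7 and 33.0 CPM in control members. The other groups overlapped these values, with 24.4 CPM in CD4 cells of 1797 replicate 1 and 52.8 CPM in cells without BLK or SOX13 of control replicate 2. It was called higher against CD4 cells (adjusted p = 0.035) and CD8A cells (adjusted p = 0.018), and was not called against cells without BLK or SOX13 (adjusted p = 0.11). The call against CD4 cells was lost without 1797 replicate 2 or either control library (edgeR adjusted p 0.087 to 0.12), and that against CD8A cells without either control library (0.060 and 0.078). Against cells without BLK or SOX13 it became a call without control replicate 2 (2.32, adjusted p = 0.0018). Inflammatory cytokines were lower: TNF averaged 5.66 CPM in members, against 29.4 CPM in CD4 cells, 39.8 CPM in CD8A cells and 36.9 CPM in cells without BLK or SOX13. IFNG, IL10, CSF1 and CCL4 were called lower in all 3 comparisons, IFNG at a mean of 1.62 CPM in members and 10.4 to 33.5 CPM over the libraries of CD8A cells.

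**Figure D3:**
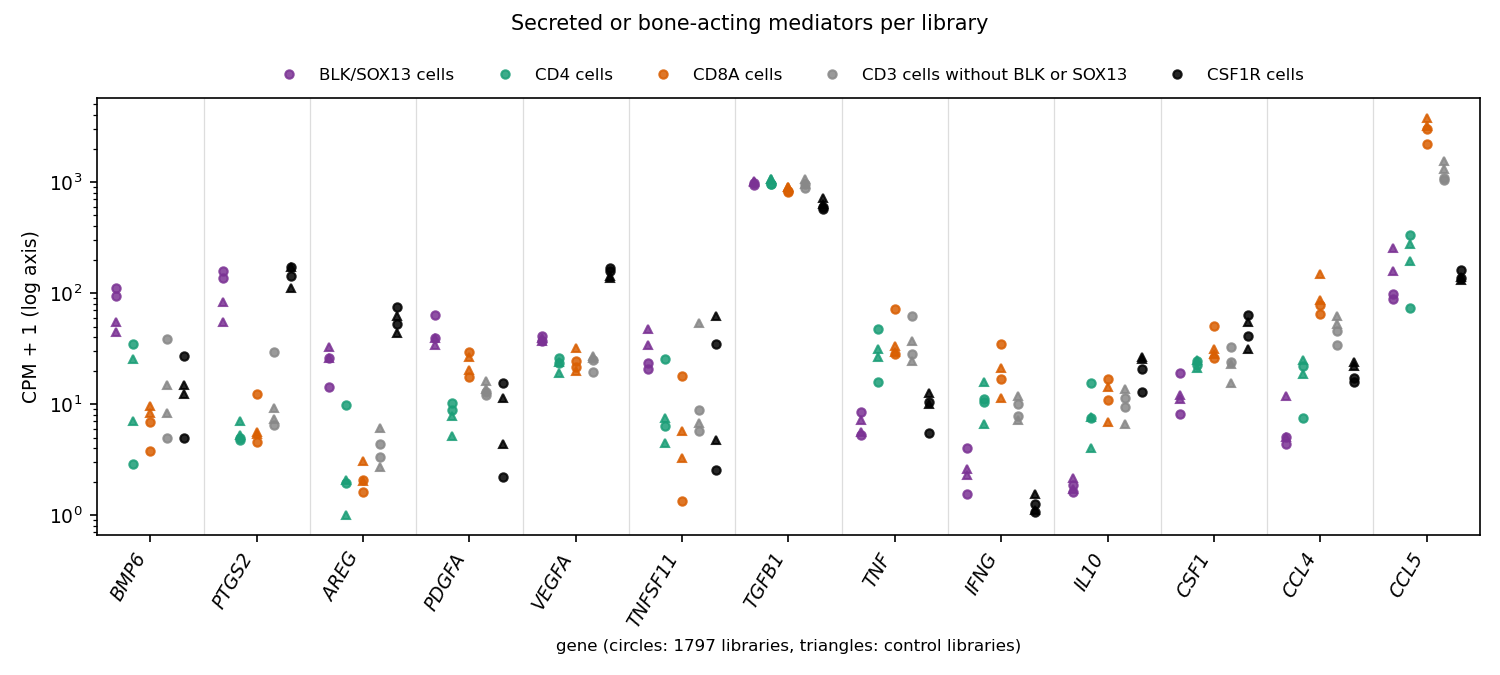
CPM + 1 on a log axis for 13 secreted or bone-acting mediators in BLK/SOX13 cells, 3 other groups of CD3 cells and CSF1R cells. Each point is 1 library, circles for 1797 and triangles for control: BMP6, PTGS2, AREG and PDGFA sit highest among T cells in BLK/SOX13 cells, and TNF sits lowest there. PTGS2 in CSF1R cells is at levels like those of 1797 members and above those of control members.

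Killing genes were sparse in BLK/SOX13 cells. Against CD8A cells, 1 of 22 tested cytotoxic genes was called higher and 20 lower (median log2 difference -3.48), and against cells without BLK or SOX13 1 of 21 was higher and 18 lower (median -2.27). Against CD4 cells 3 of 18 were higher and 4 lower (median 0.15). CCL5, a chemokine of effector T cells, averaged 149 CPM in members, 217 CPM in CD4 cells and 3042 CPM in CD8A cells. GNLY, a membrane-lysing granule protein, averaged 27.6 CPM in members, 43.1 CPM in CD4 cells and 544 CPM in CD8A cells. Neither was called against CD4 cells (edgeR adjusted p = 0.25 and 0.16), but both were lower there with at least 2 BLK or SOX13 UMIs required (log2 differences of -1.25 and -1.55, adjusted p = 0.0059 and 0.0063). The gene of the list called higher against all 3 groups was SRGN, the proteoglycan serglycin that packs granules, at 1103 to 1561 CPM in members and means of 758 to 1101 CPM in the others.

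BLK/SOX13 cells were next split by CD2, the surface protein by which pig gamma-delta T cells are divided. CD2 was detected in 209 members and not in 4245. Of 10810 genes tested with library as a block, 495 (4.58%) were called higher and 488 (4.51%) lower in members with CD2. Members with CD2 had an LCK level of 441 and 757 CPM with 1797 and 657 and 459 CPM with control, against 31.8 and 33.3 CPM and 76.2 and 39.9 CPM in members without CD2. The 2 groups did not overlap, and the log2 difference was 3.63 ± 0.20 (edgeR adjusted p = 5.8e-06). LCK in members with CD2 overlapped its 665 to 724 CPM in CD8A cells.

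Cytotoxic genes went with CD2. Of 19 tested, 14 were called higher and 1 lower in members with CD2, with a median log2 difference of 2.24 beside -0.0076 over all genes. CCL5 averaged 1114 CPM in members with CD2 and 84.3 CPM in those without, GNLY 245 and 13.9 CPM, and KLRK1, the activating receptor NKG2D, 237 and 10.0 CPM. EOMES, a factor of cytotoxic and memory cells, averaged 26.3 CPM in members with CD2 and 1.91 CPM in those without. TOX, IKZF2, the factor Helios, and FCGR3A, an antibody receptor of killer cells, were also called higher with CD2. Other genes named by size were SYTL5, ARPP21, PAPPA, PRDM16 and NUGGC, with means of 6.12 CPM or less in members without CD2. Of cell cycle genes, 7 of 20 were called higher with CD2 and 1 lower. MKI67, a proliferation marker, had 110.1 and 0 CPM in 1797 members with CD2 and 12.2 and 16.0 CPM in control members with CD2, and its call was lost without 1797 replicate 1 or control replicate 1 (edgeR adjusted p 0.091 and 0.097).

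The genes that marked BLK/SOX13 cells as a whole were lower in the members with CD2. C9H1orf186 had 539 and 476 CPM in 1797 members with CD2 and 436 and 317 CPM in control members with CD2. Without CD2 it had 1573 and 1918 CPM in 1797 members and 1651 and 1650.0 CPM in control members, a log2 difference of -2.05 ± 0.12 (edgeR adjusted p = 8.5e-06). CD163L1 averaged 9.80 CPM with CD2 and 54.1 CPM without, CCR6 21.8 and 74.8 CPM, BMP6 21.7 and 78.0 CPM, and PTGS2 37.1 and 112 CPM, and all 4 were called lower. IL9R, CRHR1, SCML2, APBA1, ASIC2 and KCTD16 were also called lower with CD2, and APBA1 and ASIC2 were not called without control replicate 1. IL9R was not called with at least 2 BLK or SOX13 UMIs required. LOC102160313, in the receptor locus, averaged 163 CPM with CD2 and 196 CPM without, a difference of -0.34 ± 0.13 that was not called (edgeR adjusted p = 0.15).

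**Figure D4:**
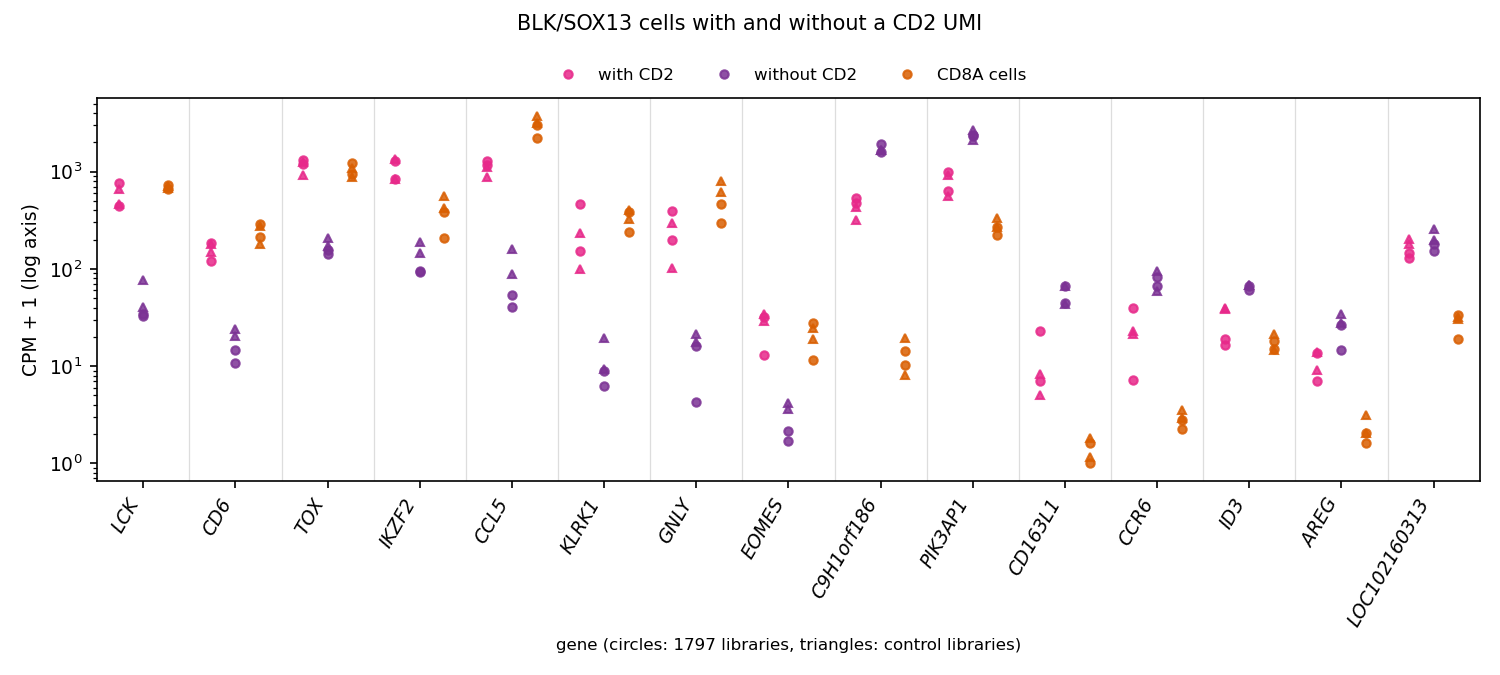
CPM + 1 on a log axis for 15 genes in BLK/SOX13 cells with a CD2 UMI, those without one, and CD8A cells. Each point is 1 library, circles for 1797 and triangles for control: LCK, CCL5 and KLRK1 sit well above members without CD2, C9H1orf186 and CD163L1 below them, and LOC102160313 at 128 to 200 CPM with CD2 against 153 to 258 CPM without.

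Several other measures moved with CD2. A CD2 UMI was seen in 107 of 409 members (26.2%, 95% exact interval 22.0 to 30.7%) with exactly 1 BLK or SOX13 UMI, against 102 of 4045 (2.52%) with more. Members with CD2 had median depths of 8949 and 10238.5 UMIs with 1797 and 9175 and 9103.5 with control, against 6575 and 7279 and 7258 and 7296 in members without CD2. With called doublets removed, 1002 genes were called in either direction, against 983 with them. Of other cells' markers, 2 of 4 tested natural killer cell genes were called higher with CD2 (median 1.44), and 3 of 6 neutrophil, 2 of 3 erythroid and 1 of 5 stromal genes were called lower. The part of depth and of cells at the threshold in the split was not tested, but with at least 2 BLK or SOX13 UMIs required, an alternative added after seeing the data, 381 genes were called. Without 1797 replicate 2 there were 530 called genes, and without control replicate 1 there were 478. After thinning, a CD2 UMI was seen in 1.49% of members, 15.3% of CD4 cells and 0.660% of CSF1R cells.

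Few genes were called by which gene of the rule chose a member, in a comparison with few cells on the SOX13 side. Members with SOX13 only were 33 and 25 cells with 1797, against 113 and 15 with control. Those with BLK only were 381 and 382 cells with 1797, against 386 and 317 with control. Between members with BLK only and those with SOX13 only, 3 of 8571 genes (0.035%) were called higher with BLK only by edgeR and 0 (0%) lower, while 337 had an unadjusted p under 0.05 and DESeq2 called 6 higher and 0 lower. AUTS2, a chromatin regulator, averaged 151 CPM with BLK only and 17.5 CPM with SOX13 only, a log2 difference of 2.84 ± 0.31 (edgeR adjusted p = 0.0011). The other called genes were IBSP and LUM, matrix genes of bone and stroma, whose calls were lost without 1797 replicate 2 and, for LUM, without control replicate 1. Without 1797 replicate 1, 1797 replicate 2 or control replicate 2, 5, 1 and 10 genes were called. All 5 stromal markers had positive log2 differences (median 2.25), and the part of stromal RNA in this comparison was not tested.

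The study's question was what the 1797 peptide does in regenerating bone. BLK/SOX13 cells were 8.94% and 8.81% of kept cells with 1797, against 9.42% and 7.70% with control. The control values lay on both sides of these, and the means were 8.87 ± 0.09% with 1797 and 8.56 ± 1.22% with control (SD, n = 2 each, two-sided exact permutation p = 1.0). With 2 libraries a group this test cannot go below 0.333. Of CD3 cells, BLK/SOX13 cells were 38.6% and 39.8% with 1797, against 25.8% and 31.3% with control. The groups did not overlap, with a difference of 10.7 percentage points (exact permutation p = 0.333, the smallest possible). Cells with BLK or SOX13 left out for CD8A UMIs were 2.41% and 2.20% of CD3 cells with 1797, against 3.00% and 4.35% with control. Those left out for B cell or CSF1R UMIs were 5.31% and 7.53% with 1797, against 8.40% and 8.67% with control. The part of these exclusions in the difference was not tested. CD3 cells as a whole were 23.2% and 22.1% of kept cells with 1797, against 36.6% and 24.6% with control, and CD8A cells averaged 2.85 ± 0.40% of kept cells with 1797 and 4.89 ± 0.69% with control (SD, n = 2 each). The share of kept cells depended on the rule. With at least 2 BLK or SOX13 UMIs required it was 8.27% and 8.28% with 1797, against 8.02% and 7.13% with control. With the rule applied to cells thinned to 1500 UMIs it was 4.59% and 4.13% with 1797, against 3.72% and 3.28% with control. Under both alternatives the groups did not overlap (exact permutation p = 0.333 each).

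The share of members with a CD2 UMI was 2.77% (31 of 1120) and 2.59% (30 of 1158) with 1797, against 7.13% (90 of 1263) and 6.35% (58 of 913) with control. The groups did not overlap (exact permutation p = 0.333). With at least 2 BLK or SOX13 UMIs required, an alternative added after seeing the data, the shares were 1.64% and 1.29% with 1797, against 4.19% and 3.08% with control. Control replicate 1 also had the most members at exactly 1 UMI of the rule's genes, 14.9% against 6.04 to 7.45% in the other libraries.

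Within BLK/SOX13 cells edgeR called no gene between 1797 and control: 0 of 12545 (0%), with 448 at an unadjusted p under 0.05 and 1 called without control replicate 2. DESeq2 called 19, of which 7 were higher and 12 lower with 1797. The libraries of the groups did not overlap in 4039 genes (32.2%). SLA-1, a classical class I histocompatibility gene, had 1659.6 and 1907 CPM with 1797, against 599.8 and 714 CPM with control. CD8A cells had 1662 and 1784 CPM of it with 1797, against 597 and 608 CPM with control, so the gap was also present in CD8A cells. CDS1, a phospholipid enzyme, had 30.8 and 44.5 CPM in members with 1797, against 4.77 and 7.26 CPM with control, and PDZD2 had 11.7 and 13.2 CPM with 1797, against 62.6 and 52.7 CPM with control. DESeq2 adjusted p was 1.3e-11, 9.5e-08 and 5.8e-09 for these, and edgeR adjusted p was 0.942, 0.998 and 0.942.

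Among the genes that set members apart, BMP6 and PTGS2 did not overlap between the groups, as was so for 32.2% of all genes tested. For BMP6, given above per library, the log2 difference was 1.06 ± 0.21, with an edgeR adjusted p of 0.998 and a DESeq2 adjusted p of 0.021. PTGS2 averaged 148 ± 15.5 CPM with 1797 and 68.5 ± 19.9 CPM with control, a log2 difference of 1.11 ± 0.26 (edgeR adjusted p = 0.998). CSF1R cells had 169.6 and 141 CPM of PTGS2 with 1797, against 169.5 and 109.6 CPM with control. TNFSF11 averaged 21.0 CPM with 1797 and 39.9 CPM with control, and was not called either. C9H1orf186, CD163L1, CCR6, GATA3 and PIK3AP1 had log2 differences of 0.16, 0.11, 0.05, -0.04 and 0.03, with standard errors of 0.15 to 0.29.

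Cytotoxic genes had lower values with 1797, and edgeR called none of them. All 19 tested genes of the list had a negative log2 difference, with a median of -0.75 beside -0.0056 over all genes. Of these, 5 had an unadjusted edgeR p under 0.05 and 11 did not overlap between groups. Over all 12545 genes tested, 448 had such a p and 32.2% did not overlap. EOMES had 1.62 and 1.77 CPM with 1797, against 5.68 and 5.41 CPM with control. CCL5 had 86.6 and 96.3 CPM with 1797, against 255 and 158 CPM with control. FCGR3A had 25.8 and 35.4 CPM with 1797, against 73.9 and 79.2 CPM with control, and was called lower by DESeq2 (adjusted p = 0.0042). LCK, CD2 and CD6 had log2 differences of -0.97, -1.03 and -1.03. Leaving out members with CD2, chosen after seeing the data, kept 17 of 18 below 0 (median -0.82), and requiring at least 2 BLK or SOX13 UMIs kept 16 of 17 (median -0.54). A cell without a CD2 UMI may still express CD2, so the first step cannot tell whether the difference lies outside CD2-expressing members. All 7 macrophage markers (median -0.93) and all 4 tested natural killer cell markers (median -0.87), FCGR3A being in both that list and the cytotoxic one, also had negative differences, as did 3 of 4 tested B cell markers (median -0.87). JCHAIN, the joining chain of antibodies, had 0.873 and 4.21 CPM with 1797, against 19.4 and 30.8 CPM with control, and was called lower by DESeq2 (adjusted p = 0.0016). The macrophage sum was 45.5 and 34.9 CPM in members with 1797, against 66.7 and 109 CPM with control, and the cytotoxic list summed to 2817 and 3476 CPM in CSF1R cells with 1797, against 3793 and 3647 CPM with control. That list summed to 5065 and 6400.5 CPM in CD8A cells with 1797, against 7408 and 7316 CPM with control, and to 401 and 646 CPM in B cells (kept cells with MS4A1 and CD79B and no CD3 UMIs) with 1797, against 677 and 772 CPM with control. SRGN, at 1103 to 1561 CPM in members, made up most of the cytotoxic list's sum there. Its part in the sums of CSF1R cells, CD8A cells and B cells was not separated, so these sums cannot gauge the list's other genes. The part of free RNA in these differences between 1797 and control was not tested.

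**Figure D5:**
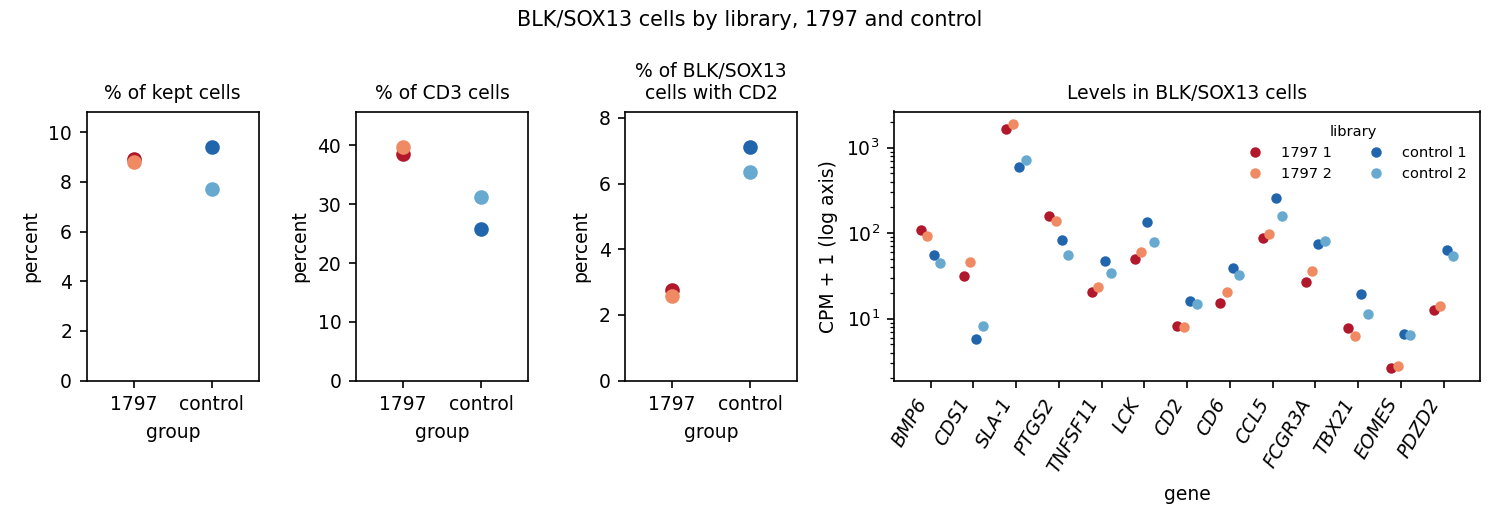
BLK/SOX13 cells by library, 1797 left and control right. The first 3 panels give percentages of kept cells, of CD3 cells and of members with a CD2 UMI, and the last gives CPM + 1 on a log axis: the groups overlap in the share of kept cells (8.94 and 8.81%, against 9.42 and 7.70%) and do not overlap in the other shares or in the 13 genes drawn, none of which edgeR called. These genes were chosen for display, and 32.2% of all 12545 genes tested did not overlap between the groups.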

How the data were processed

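Per the file headers, the deposited 10x matrices hold counts of UMIs per gene and cell barcode, unnormalized, written by Cell Ranger 7.0.1; the submitters' processing notes name Cell Ranger 5.0.0 and Sscrofa11.1. How barcodes were called is not given in the sources used here, and no barcode had under 500 UMIs. A barcode was kept if it showed 200 genes or more and its share of UMIs in 13 mitochondrial genes was below 20%. Doublets were called with Scrublet (scanpy 1.11.5, expected rate 0.1); they were kept, and removed as an alternative. UMIs were summed per library and group of cells and tested with edgeR 4.0.16 in R 4.3.3 (TMM, filterByExpr, quasi-likelihood, Benjamini-Hochberg over all genes tested; numpy 2.4.6 and scipy 1.17.1 elsewhere). CPM are raw UMIs scaled to the group's summed total, and standard errors were derived from the log2 difference and its F statistic. Class comparisons had library as a block; 1797 against control had none. DESeq2 1.42.0, no filter on low counts, no doublets, stricter cells (500 genes, 10% mitochondrial), at least 2 BLK or SOX13 UMIs, thinning to 1500 UMIs and leaving out each library were alternatives. The test was run on simulated data first.

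For each comparison, up to 10 genes in each direction were named, by these limits: adjusted p below 0.05, log2 difference of 1 or more in size, at least 20 CPM in the higher group and the same direction in all 4 libraries (unblocked: groups not overlapping), by size, excluding genes of the rule or split and unnamed identifiers, plus members of 20 gene lists, of whose 330 symbols 311 were in the feature table; the others are not used here. Genes outside this rule (BMP6, HDAC9, LOC100627879, LOC102158035, LOC102160313, SLA-1, CDS1, PDZD2) were picked after their values were seen. Members and lists were chosen with earlier results of these data known. Results for some genes are not reported here.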

Additional observations from a re-analysis of the deposited data

Results flagged for a closer look

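Among the 20 genes checked in each comparison of cell groups, 2 had 1 library far from the other 3, and chance alone flags about 1 in 20 such groups. TSPAN7, a tetraspanin, was above CD8A cells by 3.64 on the log2 scale in control replicate 2, against 4.40 to 4.49 in the other libraries. THEMIS was below cells without BLK or SOX13 by a log2 difference of -2.51 in control replicate 1, against -3.95 to -3.72 in the other libraries. Control replicate 1 also had 11.2 CPM of THEMIS in members, against 3.99 to 5.65 CPM in the other libraries, and held the most members at the threshold of the rule. The part of these cells in the value was not tested.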

How the results depend on the processing

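Without control replicate 2 the difference in the share of kept cells was -0.55 percentage points, and without single libraries it ran from -0.55 to 1.17. It was 1.17 with stricter cells, 0.70 with at least 2 UMIs and 0.86 after thinning, and in the last 2 the groups did not overlap, 1797 being higher (exact permutation p = 0.333, the smallest possible). The CD2 share differed by -2.17 points with at least 2 BLK or SOX13 UMIs (added after seeing the data) and by -4.45 to -3.67 with single libraries left out. Between 1797 and control, 0 to 1 genes were called without single libraries (1 without control replicate 2) and 19 with DESeq2. With the replicate number as a block, 0 were called and 456 had an unadjusted p under 0.05. With crossed numbers, added after seeing the data because same-numbered libraries deviated oppositely (correlation -0.13), 0 were called and 429 had such a p. Without members with CD2 (also added), the counts were 0 and 427. For the CD2 split, 381 genes were called with at least 2 UMIs (added) and 478 to 786 without single libraries (530 without 1797 replicate 2, 478 without control replicate 1). For BLK only against SOX13 only, DESeq2 called 6, no filter on low counts 64, and leaving out single libraries 1 to 10. Genes that changed sign were not called: MAF against CD4 cells (-0.015 without 1797 replicate 2, up to 0.19 without others), KLRK1 against CD4 cells (-0.052 with at least 2 UMIs), IL7R against CD8A cells (0.090 without 1797 replicate 2, 0.03 without control replicate 2, down to -0.53 without others), and SOX4 by CD2 (-0.13 with at least 2 UMIs). The cause was not tested. Other named genes kept their direction. Depth bore on shares of cells: a CD2 UMI was seen in 4.69% of members, and in 1.49% after thinning.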

Other observations

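Early-response and metabolic genes were more often called higher than lower in BLK/SOX13 cells. Of 27 tested immediate early genes, 14 were called higher and 3 lower against CD4 cells, 12 and 2 against CD8A cells, and 11 and 6 against cells without BLK or SOX13, beside background shares of 13.6 to 18.0%. FOSB, a subunit of the AP-1 factor, averaged 157 CPM in members, against 51.7, 69.9 and 90.8 CPM in these groups, and was called in all 3. Such genes can also respond to tissue digestion, and their part in the difference was not tested. Against cells without BLK or SOX13 the list's median log2 difference was only 0.060. Its summed levels overlapped there, at 10166 to 12091 CPM in members and 10080 to 10445 CPM in those cells. Of glycolysis and hypoxia genes, 9 of 27, 10 of 26 and 10 of 27 were called higher and 3, 1 and 2 lower. HIF1A, the oxygen-sensing factor, averaged 348 CPM in members, against 241, 153 and 193 CPM, and EGLN3, a hydroxylase that marks HIF proteins for decay, was lower in all 3, at 8.78 CPM in members and 20.2 to 25.6 CPM elsewhere.

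Interferon response genes were more often lower: 2 of 31 were called higher and 10 lower against CD4 cells, 2 of 30 and 9 against CD8A cells, and 2 of 30 and 7 against cells without BLK or SOX13. HDAC9, a class IIa histone deacetylase picked after its values were seen, had 264 and 280.0 CPM in members of the 1797 libraries and 358 and 242 CPM in those of the control libraries, against means of 23.7 CPM in CD4 cells, 109 CPM in CD8A cells and 79.1 CPM in cells without BLK or SOX13, and was called in all 3 comparisons by edgeR. Between 1797 and control, edgeR called none of these genes.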
